A study of Mus musculus with 4 samples.

Results

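The genes described here are 9 receptors for metabolites, oxysterols, lysophosphatidic acid and extracellular nucleotides, together with Ch25h, an enzyme that makes the precursor of an oxysterol ligand. They were taken by symbol: Niacr1 (now called Hcar2), Gpr84, Ch25h, Gpr183, Lpar6, Adora2a, Adora2b, P2rx4, P2rx7 and P2ry6, which are 10 of the 23284 gene rows in the files. All 10 were present, and each reached at least 5 FPKM, a level per length of transcript and per library size, in at least 1 library. The genes were picked with their levels and ratios in these same libraries known, so the values below describe them and support no claim about how they were picked.

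RNA came from mouse bone marrow-derived macrophages, which are grown in culture from marrow progenitors. There were 4 libraries: Spic-/- cells with LPS, control (Spic+/+) cells with LPS, Spic-/- cells without LPS and control cells without LPS. LPS is a bacterial cell wall component sensed by a Toll-like receptor, and it was given at 100 ng/ml for 4 h. All 4 cultures, controls included, had been exposed beforehand to hemin, a heme compound, for 18 h, at a dose that the protocol gives as 40 µM and the sample descriptions as the same number in mM. The product of Spic, Spi-C, is a heme-inducible transcription factor related to PU.1, and the study addresses genes of the Toll-like receptor response whose expression it decreases. The sample titles call the knockout conditional, and neither the allele nor a Cre driver, nor the age of the mice, is stated in the labels. Each group was 1 library, so no difference below has a replicate check, and no test or p-value is given.

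Spic itself stood at 80.8 FPKM in Spic-/- and 406 FPKM in control cells with LPS, and at 14.98 FPKM in Spic-/- and 53.1 FPKM in control cells without LPS. The Spic-/- levels were thus 19.9% of control with LPS and 28.2% of control without LPS. All 8 macrophage markers found in the files reached at least 5 FPKM, while no marker of T and NK cells, dendritic cells or mast cells did. Cd3e, Siglech and Cpa3, defining markers of T cells, plasmacytoid dendritic cells and mast cells, were listed at 0 in every library. Of 7 neutrophil markers, 2 reached 5 FPKM and Mpo was listed at 0 throughout. S100a8 stood at 114 FPKM in Spic-/- and 214 FPKM in control cells with LPS, and at 18.5 FPKM in Spic-/- and 20.2 FPKM in control cells without LPS, and S100a9 between 9.94 and 19.9 FPKM. Of 12 stromal and endothelial markers, 9 reached 5 FPKM, and the endothelial markers Pecam1 and Cdh5 did not. From the spacing of low values, 1 FPKM equalled about 8.07 fragments per kilobase in Spic-/- with LPS and 10.6 in control with LPS. Without LPS it equalled 12.9 in Spic-/- and 15.6 in control, so a given FPKM rested on fewer fragments with LPS. This is not a measure of the total fragments in a library.

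These receptors let macrophages read small molecules in their surroundings. HCA2, the product of Niacr1, binds the ketone body beta-hydroxybutyrate and niacin, and GPR84 binds medium-chain fatty acids. Gpr183 encodes EBI2, which guides immune cells along gradients of oxysterols made from the product of Ch25h, the cholesterol hydroxylase. Extracellular ATP opens the P2X channels, UDP acts on P2Y6, and adenosine made from ATP acts on the receptors encoded by Adora2a and Adora2b, which raise cyclic AMP and restrain inflammatory output of macrophages. LPAR6 responds to lysophosphatidic acid.

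Because several of these genes shared a direction with LPS, and because Ch25h and Gpr183 form an enzyme and receptor pair, the 250 bases before the annotated start sites of 4 genes are shown, 5′ to 3′ on the gene's strand. Sequences are from RefSeq on GRCm38.p6. Ch25h and P2rx7 are shown for the matches that they hold, and Gpr183 and Lpar6 as the pair of genes with the lowest levels after LPS.
Ch25h, chr19:34475149-34475398, minus strand: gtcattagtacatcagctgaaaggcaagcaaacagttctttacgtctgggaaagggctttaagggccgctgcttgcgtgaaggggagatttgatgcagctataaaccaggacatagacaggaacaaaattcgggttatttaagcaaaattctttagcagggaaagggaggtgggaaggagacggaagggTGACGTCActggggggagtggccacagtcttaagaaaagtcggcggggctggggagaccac
P2rx7, chr5:122643677-122643926, plus strand: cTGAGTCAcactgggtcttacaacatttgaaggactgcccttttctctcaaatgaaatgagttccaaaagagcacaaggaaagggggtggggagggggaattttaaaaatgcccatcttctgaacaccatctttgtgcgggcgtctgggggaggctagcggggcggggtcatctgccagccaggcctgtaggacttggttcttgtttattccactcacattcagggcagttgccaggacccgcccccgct
Gpr183, chr14:121965194-121965443, minus strand: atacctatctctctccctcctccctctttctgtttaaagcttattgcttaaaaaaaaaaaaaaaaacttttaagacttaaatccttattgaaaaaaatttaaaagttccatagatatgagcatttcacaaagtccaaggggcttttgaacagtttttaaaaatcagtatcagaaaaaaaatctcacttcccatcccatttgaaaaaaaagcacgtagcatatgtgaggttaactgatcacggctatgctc
Lpar6, chr14:73237641-73237890, plus strand: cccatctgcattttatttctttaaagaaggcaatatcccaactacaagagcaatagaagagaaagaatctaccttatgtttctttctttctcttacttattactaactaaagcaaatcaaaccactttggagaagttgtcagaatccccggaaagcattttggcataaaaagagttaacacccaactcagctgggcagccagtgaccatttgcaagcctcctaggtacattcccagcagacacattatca
Capitals mark a cyclic AMP response element (TGACGTCA) that starts 61 bases before the Ch25h start site, and an AP-1 motif (TGANTCA) that starts 249 bases before that of P2rx7. The cyclic AMP motif was added to the search after the sequences had been read.

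Both strands of 8 windows from 7 of the 10 genes (P2rx7 with 2 start sites, P2rx4, Adora2b, Lpar6, Gpr183, Gpr84 and Ch25h) were searched, next to all 32851 windows of the same length. The AP-1 motif was in 1 of the 8 and in 6.75% of all windows, and the cyclic AMP motif in 1 of the 8 and in 1.55% of all. Because the cyclic AMP motif was picked after reading these windows, its count cannot be compared with that share. The core bound by PU.1 and Spi-C (GAGGAA) was in 23.3% of all windows, the NF-kB motif in 1.41% and the interferon response motif in 2.98%, and none of these 3 was in the 8. That statement covers only these motifs in these windows. By base composition the windows of Gpr183 (32.0% G or C) and Lpar6 (39.2%) were the poorest in G and C among the 8, and that of Adora2b (69.6%) the richest.

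With LPS the 10 genes parted into a group that was much higher, a group that was much lower, and P2rx4. Niacr1, Gpr84, Ch25h, Adora2a and Adora2b were between 9.76-fold and 149-fold higher with LPS in the 2 genotypes, on the FPKM scale. Gpr183, Lpar6 and P2rx7 were at 1.60% to 22.9% of their levels without LPS, P2ry6 at 46.3% in Spic-/- and 54.4% in control cells, and P2rx4 at 88.1% in Spic-/- and 100.2% in control cells. Counted at 2-fold on log2 ratios of (FPKM + 1), 5 of the 10 were higher and 4 lower in Spic-/- cells, against 13.7% and 7.74% of all 8098 genes with at least 5 FPKM. In control cells 5 were higher and 3 lower, against 12.3% and 6.5% of 8050 genes. Most of the called genes reached 5 FPKM only in the library where they were high. In both genotypes Niacr1, Adora2a and Adora2b did so only with LPS, and Gpr183, Lpar6 and P2rx7 only without LPS. In control cells Ch25h also reached it only with LPS. The median log2 ratio of the 10 was 1.48 in Spic-/- and 1.86 in control cells, and that of all genes 0.12 in Spic-/- and 0.11 in control cells. These shares are background for genes that were chosen on the same ratios. Of all genes called, 63.9% in Spic-/- and 65.5% in control cells were higher with LPS, and 51.3% in Spic-/- and 52.9% in control cells after upper-quartile scaling. In bulk RNA, here and below, fewer cells of a type and less RNA per cell cannot be told apart.

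**Figure D1:**
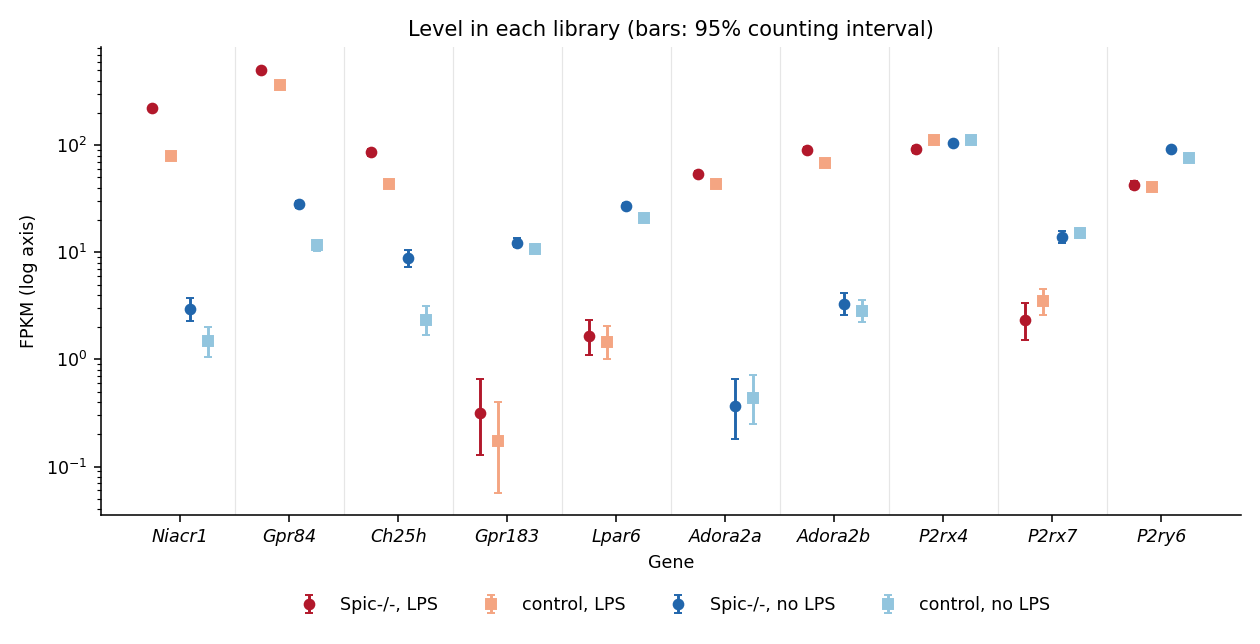
FPKM on a log axis of each gene in the 4 libraries, with 1 point per library and bars for the 95% counting interval. Niacr1, Gpr84, Ch25h, Adora2a and Adora2b are higher in both libraries with LPS, Gpr183, Lpar6, P2rx7 and P2ry6 are lower in them, and P2rx4 stays between 91.7 and 112 FPKM.

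Among the metabolite receptors, Niacr1 had the widest gap between genotypes after LPS. It lies on chromosome 5 (123863570 to 123865499, minus strand, GRCm38) and its annotated transcript has 1 exon. It stood at 223 FPKM in Spic-/- and 79.4 FPKM in control cells with LPS, and at 2.93 FPKM in Spic-/- and 1.47 FPKM in control cells without LPS. Both libraries with LPS were far above both without it, and in each LPS state the Spic-/- library was above the control. These levels rested on about 3136, 1464, 66 and 40 fragments in the same order. With LPS it was 76.2-fold higher in Spic-/- (95% counting interval 59.7 to 98.8) and 53.96-fold higher in control cells (39.4 to 75.9). The Spic-/- to control ratio was 2.82 with LPS (2.64 to 2.997) and 1.99 without LPS (1.33 to 3.03). These intervals reflect the sampling of fragments alone and say nothing of how cultures vary.

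Gpr84 was the most abundant of the 10 genes after LPS and also differed by genotype, mainly without LPS. It lies on chromosome 15 (103308235 to 103310612, minus strand). Its levels were 506 FPKM in Spic-/- and 365 FPKM in control cells with LPS, and 28.0 FPKM in Spic-/- and 11.6 FPKM in control cells without LPS. The order of the 4 libraries was the same as for Niacr1. Gpr84 was 18.1-fold higher with LPS in Spic-/- cells (16.6 to 19.8) and 31.6-fold higher in control cells (27.95 to 35.8). The Spic-/- to control ratio of Gpr84 was smaller with LPS, at 1.39 (1.34 to 1.44), than without LPS, at 2.42 (2.09 to 2.80). The difference between these ratios was not tested. For Niacr1 the intervals of the ratios with and without LPS overlapped, so no contrast between these genes is shown. Among all 23284 rows, Gpr84 ranked 255th in Spic-/- and 313th in control cells with LPS, and 2642nd and 5011th in Spic-/- and control cells without LPS.

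In the oxysterol pair the enzyme and the receptor went opposite ways with LPS. Ch25h lies on chromosome 19 (34473778 to 34475164, minus strand) as a single exon. It stood at 85.7 FPKM in Spic-/- and 43.0 FPKM in control cells with LPS, and at 8.78 FPKM in Spic-/- and 2.35 FPKM in control cells without LPS, from about 791, 522, 130 and 42 fragments. Every LPS library was above every library without LPS, and Spic-/- was above control in each state. The Spic-/- to control ratio was 1.99 with LPS (1.78 to 2.23) and 3.74 without LPS (2.62 to 5.43). On the log2 scale of (FPKM + 1) the ratio with LPS was 0.98, just under the 2-fold threshold, and that without LPS was 1.55, or 0.91 with a pseudocount of 5 FPKM.

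Gpr183, on chromosome 14 (121952551 to 121965195, minus strand), was nearly undetected after LPS. It had 0.317 FPKM in Spic-/- and 0.172 FPKM in control cells with LPS, and 12.3 FPKM in Spic-/- and 10.8 FPKM in control cells without LPS. The fragments behind these values were about 7 and 5 with LPS, and 436 and 462 without LPS, each time in Spic-/- and control. The level with LPS was 2.58% of that without LPS in Spic-/- cells (interval of the ratio 0.0103 to 0.0535) and 1.60% in control cells (0.00516 to 0.0375). No genotype difference was detectable at this depth with LPS (ratio 1.84, interval 0.503 to 7.35), and without LPS the interval just included 1 (1.14, 0.998 to 1.30). As a ratio of levels per length, Ch25h was 270-fold Gpr183 in Spic-/- and 249.5-fold in control cells with LPS. Without LPS it was 0.713 of Gpr183 in Spic-/- and 0.217 of it in control cells. Gpr183 lies inside the span of Ubac2, on the other strand, and the sources do not state whether counting used strand. Ubac2 stood between 15.1 and 16.96 FPKM in all 4 libraries, with log2 ratios for LPS of −0.04 in Spic-/- and −0.03 in control cells.

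Lpar6 was close to Gpr183 across the 4 libraries on the log2 scale of (FPKM + 1), but less so with a smaller pseudocount. With 0.1 FPKM the LPS ratio of Gpr183 was −4.90 in Spic-/- and −5.32 in control cells. That of Lpar6 was −3.96 in Spic-/- and −3.75 in control cells, so Lpar6 kept more of its level. Lpar6 lies on chromosome 14 (73237895 to 73243294, plus strand), inside the span of Rb1 on the other strand. Its level was 1.65 FPKM in Spic-/- and 1.46 FPKM in control cells with LPS, and 27.0 FPKM in Spic-/- and 20.9 FPKM in control cells without LPS, from about 30, 35, 789 and 740 fragments. The LPS libraries were far below the others in both genotypes, at 6.10% of the level without LPS in Spic-/- (ratio interval 0.0409 to 0.0878) and 6.97% in control cells (0.0482 to 0.0979). By genotype the ratio was 1.13 with LPS (0.668 to 1.89) and 1.29 without LPS (1.16 to 1.43). The level of Rb1 was 7.18 FPKM in Spic-/- and 6.405 FPKM in control cells with LPS, and 10.93 FPKM in Spic-/- and 10.96 FPKM in control cells without LPS, so it was lower with LPS by much less than Lpar6. The part of overlapping fragments in the Lpar6 values was not tested.

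Both receptors that raise cyclic AMP in answer to adenosine were nearly silent or low without LPS and well expressed with it. Adora2a (chromosome 10, 75316877 to 75334784, plus strand) stood at 54.3 FPKM in Spic-/- and 43.1 FPKM in control cells with LPS, and at 0.365 FPKM in Spic-/- and 0.440 FPKM in control cells without LPS. It had the largest LPS ratio of the 10 genes on the FPKM scale, 149-fold in Spic-/- (82.7 to 299) and 97.9-fold in control cells (59.98 to 172), and the wide intervals come from only about 11 and 16 fragments without LPS. Adora2b (chromosome 11, 62248984 to 62266453, plus strand) had 90.2 FPKM in Spic-/- and 68.5 FPKM in control cells with LPS, and 3.31 FPKM in Spic-/- and 2.85 FPKM in control cells without LPS. Its LPS ratio was 27.3 in Spic-/- (21.4 to 35.3) and 24.0 in control cells (18.95 to 30.8). With LPS the genotype ratio was 1.26 for Adora2a (1.16 to 1.38) and 1.32 for Adora2b (1.21 to 1.43). Without LPS both intervals included 1, at 0.830 for Adora2a (0.348 to 1.91) and 1.16 for Adora2b (0.822 to 1.63). The gap between the adenosine receptors was smaller with LPS: Adora2b was 1.66-fold Adora2a in Spic-/- and 1.59-fold in control cells with LPS, and 9.05-fold in Spic-/- and 6.49-fold in control cells without LPS. Adora1 was listed at 0 in all libraries, and Adora3 stayed between 0.724 and 1.17 FPKM. The summed level of the 4 adenosine receptors was 145 FPKM in Spic-/- and 112 FPKM in control cells with LPS, and 4.84 FPKM in Spic-/- and 4.37 FPKM in control cells without LPS.

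Of the nucleotide receptors among the 10, P2rx7 and P2ry6 were lower with LPS and P2rx4 was within 2-fold. P2rx4 and P2rx7, neighbouring channel genes on chromosome 5 (122707544 to 122729738 and 122643911 to 122691432, both on the plus strand), differed in this. P2rx4 had 91.7 FPKM in Spic-/- and 112 FPKM in control cells with LPS, and 104 FPKM in Spic-/- and 112 FPKM in control cells without LPS. The Spic-/- library with LPS was the lowest of the 4, with a ratio to control of 0.817 (0.737 to 0.905). In control cells the log2 ratio for LPS was 0.00, and it was −0.17 after upper-quartile scaling.

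P2rx7, the ATP-gated channel that triggers the NLRP3 inflammasome, stood at 2.32 FPKM in Spic-/- and 3.47 FPKM in control cells with LPS, and at 13.9 FPKM in Spic-/- and 15.2 FPKM in control cells without LPS. Both LPS libraries were below both libraries without LPS, at 16.7% of the level without LPS in Spic-/- (ratio interval 0.107 to 0.250) and 22.9% in control cells (0.166 to 0.306). P2rx4 was therefore 39.6-fold P2rx7 in Spic-/- and 32.3-fold in control cells with LPS, and 7.50-fold in Spic-/- and 7.39-fold in control cells without LPS. The genotype intervals of P2rx7 included 1 with LPS (ratio 0.667, 0.401 to 1.09) and without LPS (0.914, 0.771 to 1.08). Among all 7 P2X genes, P2rx4 took 97.0% of the summed FPKM in Spic-/- and 96.4% in control cells with LPS, and 87.5% in Spic-/- and 86.6% in control cells without LPS.

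P2ry6, the UDP receptor gene on chromosome 7 (100937630 to 100974649, minus strand), had 42.7 FPKM in Spic-/- and 41.1 FPKM in control cells with LPS, and 92.2 FPKM in Spic-/- and 75.4 FPKM in control cells without LPS. The LPS libraries were again the lower ones. Its log2 ratio for LPS was −1.09 in Spic-/- and −0.86 in control cells, so only the first passed 2-fold, while after upper-quartile scaling both did, at −1.27 in Spic-/- and −1.03 in control cells. The Spic-/- to control ratio was 1.04 with LPS (0.932 to 1.16), where the sign changed after upper-quartile scaling, and 1.22 without LPS (1.15 to 1.30). Its share among the P2Y genes was smaller with LPS, since P2ry6 took 40.6% of the summed FPKM of 7 P2Y genes in Spic-/- and 41.6% in control cells with LPS, and 81.1% in Spic-/- and 79.7% in control cells without LPS. P2ry2, a receptor for ATP and UTP, was higher with LPS, with 39.2 FPKM in Spic-/- and 38.7 FPKM in control cells with LPS, and 9.02 FPKM in Spic-/- and 8.45 FPKM in control cells without LPS.

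**Figure D2:**
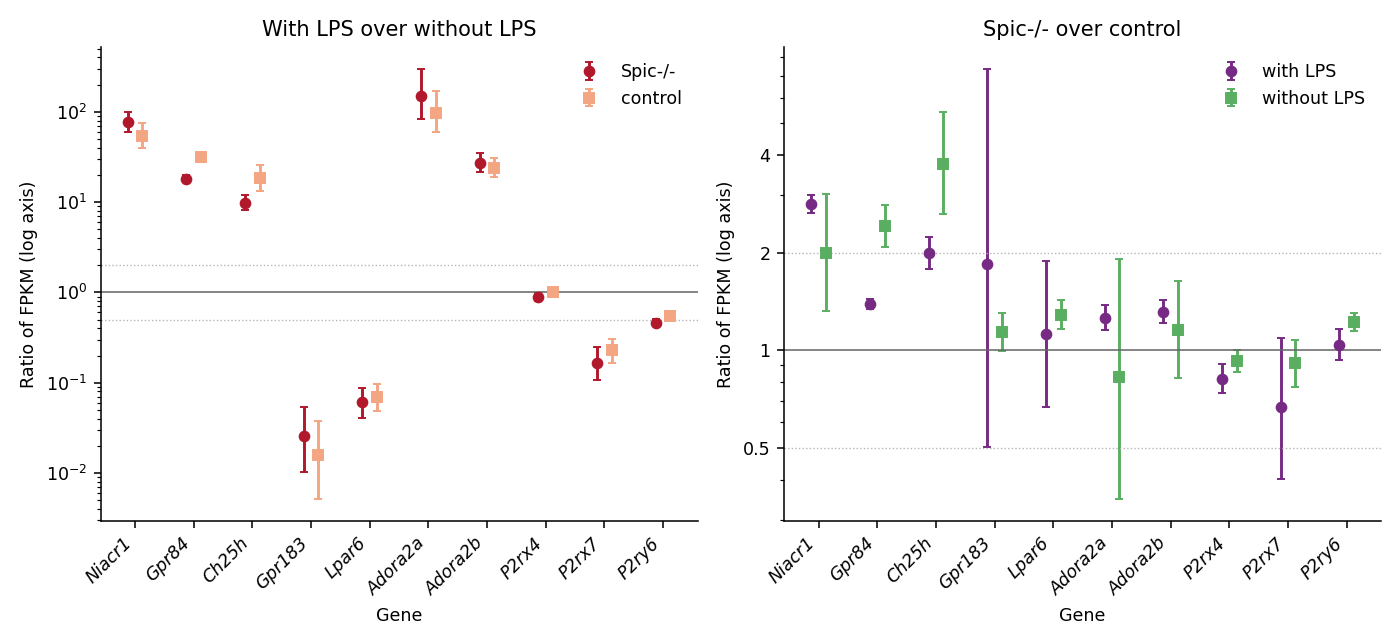
Ratios of FPKM on log axes with 95% counting intervals, for LPS over no LPS in Spic-/- and control cells (left) and for Spic-/- over control with and without LPS (right). Solid lines mark 1 and dotted lines 2-fold. Niacr1, Gpr84 and Ch25h have genotype intervals above 1 in both LPS states, with ratios from 1.39 to 3.74.

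By genotype, few of the 10 genes were at least 2-fold apart, and all that were had the higher level in Spic-/- cells. With LPS, 7 of the 10 reached 5 FPKM in the pair, and 1 of these, Niacr1, was at least 2-fold higher in Spic-/- (log2 ratio 1.48), against 0.493% of 7509 genes. None was at least 2-fold lower, against 0.4%. Of all genes called with LPS, 55.2% were higher in Spic-/-, and 44.6% after upper-quartile scaling. Without LPS, 7 of the 10 reached 5 FPKM, and Ch25h (1.55) and Gpr84 (1.204) were at least 2-fold higher, against 0.49% of 7762 genes. Again none was lower, against 0.412%. Ch25h reached the minimum only through the Spic-/- library (8.78 FPKM, against 2.35 FPKM in control cells). With a pseudocount of 5 FPKM neither Ch25h (0.91) nor Gpr84 (0.99) passed 2-fold. Log2 ratios were above 0 for 8 of the 10 genes with LPS and 7 without LPS, with medians of 0.25 with LPS and 0.23 without, against 0.09 and 0.07 over all genes. The 8 macrophage markers had genotype medians of 0.26 with LPS and 0.27 without LPS, so medians of this size were not limited to the 10 genes. Of these markers, 1 was lower in Spic-/- with LPS and 2 without LPS. Their summed FPKM went the other way from the medians, at 88.0% of control with LPS and 76.9% without LPS. The lower sums came from the abundant marker Lyz2. It stood at 3419 FPKM in Spic-/- and 5620 FPKM in control cells with LPS, and at 4014 FPKM and 6340 FPKM without LPS. Among the 10 genes, the counting interval lay off 1 for 6 with LPS and 5 without LPS. The share of all genes with such an interval was not computed, nor the share with a log2 ratio above 0. These counts therefore have no background to stand against. Niacr1, Gpr84 and Ch25h were above 1 in both states, Adora2a and Adora2b were above 1 with LPS, Lpar6 and P2ry6 above 1 without LPS, and P2rx4 below 1 with LPS.

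In the same pairs of libraries, the list of stromal and endothelial markers summed to a lower level in Spic-/- cells. Their summed level over 12 genes was 385 FPKM in Spic-/- and 675 FPKM in control cells with LPS, and 339 FPKM in Spic-/- and 658 FPKM in control cells without LPS. Of the 12, 10 were lower in Spic-/- with LPS and 9 without LPS. The 7 neutrophil markers summed to 131 FPKM in Spic-/- and 242 FPKM in control cells with LPS, and to 31.4 FPKM in Spic-/- and 41.4 FPKM in control cells without LPS. With LPS, S100a8 alone made up 114 FPKM of this sum in Spic-/- and 214 FPKM in control cells. Of the 7, only 3 were lower in Spic-/- with LPS and 4 without LPS, with median log2 ratios of 0.00 and −0.12. The part of stromal and neutrophil markers in the genotype ratios was not tested.

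**Figure D3:**
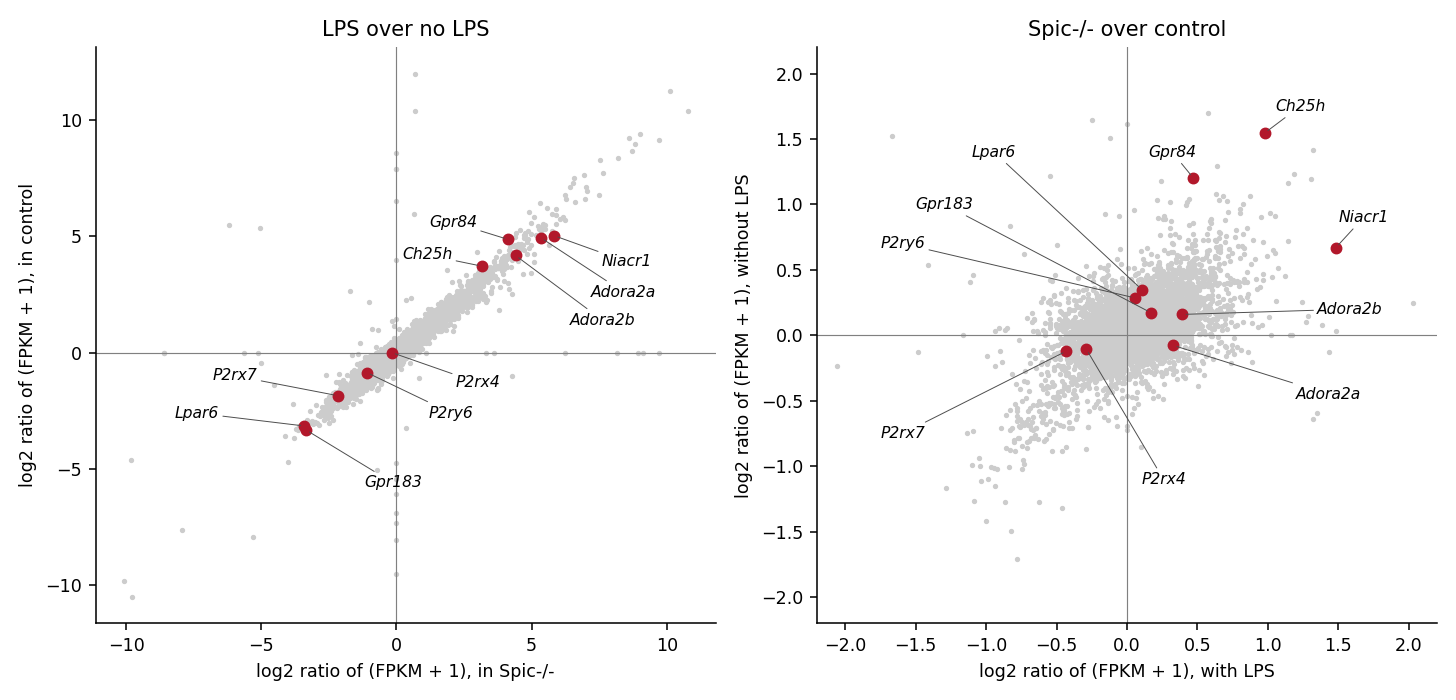
Log2 ratios of (FPKM + 1) for 8272 genes with at least 5 FPKM in at least 1 library (grey) and for the 10 genes (red), for LPS (left; Spic-/- across, control up) and for genotype (right; with LPS across, without LPS up). In the right panel 44 genes lie beyond the axis limits of 2.2, and Niacr1, Ch25h and Gpr84 stand apart from the other 7.

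The LPS responses of the genotypes were also set against each other, as the log2 ratio in Spic-/- minus that in control cells. No gene of the 10 differed by 2-fold, against 0.375% of 8272 genes higher and 0.447% lower. Niacr1 had the largest positive difference, 0.81, and Gpr84 the most negative, −0.73, followed by Ch25h at −0.57. Adora2a was at 0.40 and Adora2b at 0.23, P2rx7 at −0.31, Lpar6 at −0.25, P2ry6 at −0.23, P2rx4 at −0.18 and Gpr183 at −0.01. No counting interval is given for these differences. Without LPS, Niacr1 rested on about 66 fragments in Spic-/- and 40 in control cells, and Ch25h on about 130 and 42. The differences also depended on the pseudocount. With 5 FPKM the difference was 1.14 for Niacr1, past 2-fold, and 0.01 for Ch25h. With 0.1 FPKM it was 0.54 for Niacr1, −0.87 for Ch25h and 0.43 for Gpr183.

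The order of the 10 genes by level changed with LPS. In Spic-/- cells with LPS it ran from Gpr84 and Niacr1 through P2rx4, Adora2b, Ch25h, Adora2a and P2ry6 to P2rx7, Lpar6 and Gpr183. The counting intervals of P2rx4 and Adora2b, of Adora2b and Ch25h, and of P2rx7 and Lpar6 overlapped. In control cells with LPS, P2rx4 stood above Niacr1, and Adora2a, Ch25h and P2ry6 were not separated by their intervals. Without LPS, P2rx4 and P2ry6 led in both genotypes and Adora2a was last. There Gpr84 overlapped Lpar6 in Spic-/- cells and Gpr183 in control cells, P2rx7 overlapped Gpr183 in Spic-/- cells, and the intervals of Adora2b and Niacr1 in Spic-/- cells, and of Adora2b and Ch25h and of Ch25h and Niacr1 in control cells, overlapped as well.

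Genes with the most similar profiles were sought for Niacr1, Gpr183 and Ch25h over the 4 libraries, by the Euclidean distance between mean-centred log2(FPKM + 1) values among 7772 genes. For Niacr1 the nearest were the antiviral gene Rsad2 (distance 0.53), Csf3, which encodes the growth factor G-CSF (0.60), and the interferon-induced gene Ifit1 (0.65). Rsad2 stood at 1384 FPKM in Spic-/- and 765 FPKM in control cells with LPS, and at 31.1 FPKM in Spic-/- and 23.2 FPKM in control cells without LPS. Gpr183 was nearest to the sestrin gene Sesn1 (0.08), to Lpar6 (0.14) and to the glycosyltransferase gene Gcnt1 (0.16). For Ch25h the nearest were the interferon-induced gene Ifit3 (0.62), AA467197 (0.64) and the caveolin gene Cav1 (0.70). With 4 libraries these distances are a description only.

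Around the 10 genes, 6 lists of related genes were described, with 110 further genes found in the files. Of these, 66 reached 5 FPKM in the Spic-/- pair, where 15 were at least 2-fold higher with LPS and 11 lower (median log2 ratio 0.21). In control cells 63 reached it, with 15 higher and 9 lower (0.15). By genotype, none of 60 genes with LPS and none of 61 without LPS was at least 2-fold apart in either direction, and the medians were 0.10 with LPS and 0.08 without LPS. Over all genes the shares were 0.493% higher and 0.4% lower with LPS, and 0.49% higher and 0.412% lower without LPS, so a count of 0 among so few genes is near the background. For LPS, the list counts below stand beside 13.7% higher and 7.74% lower over all genes in Spic-/-, and 12.3% higher and 6.5% lower in control cells.

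Few other metabolite receptors were expressed. Of 5 that reached 5 FPKM in Spic-/- cells, 3 were at least 2-fold higher and 1 lower, and of 4 in control cells 3 were higher and none lower. Gpr18 had 17.2 FPKM in Spic-/- and 12.2 FPKM in control cells with LPS, and 0.771 FPKM in Spic-/- and 0.580 FPKM in control cells without LPS. Gpr132 had log2 ratios of 2.24 in Spic-/- and 2.12 in control cells, and the platelet-activating factor receptor gene Ptafr 1.66 in Spic-/- and 1.73 in control cells. Gpr35 had a ratio of −1.31 in Spic-/- cells, with 1.81 FPKM with LPS and 5.97 FPKM without.

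In the oxysterol list most other genes were within 2-fold. Of 9 other genes at 5 FPKM, 1 in Spic-/- and 2 in control cells were at least 2-fold lower with LPS and none was higher (median 0.09 in Spic-/- and 0.08 in control cells). Soat1, which esterifies cholesterol, had −1.06 in Spic-/- and −1.25 in control cells, and the sterol hydroxylase gene Cyp27a1 −0.96 in Spic-/- and −1.27 in control cells. Hsd3b7, which degrades the EBI2 ligand, had log2 ratios of −0.36 in Spic-/- and −0.21 in control cells. Cyp7b1, which completes the synthesis of that ligand, stayed under 5 FPKM, at 1.58 FPKM in Spic-/- and 1.69 FPKM in control cells with LPS, and 0.237 FPKM in Spic-/- and 0.294 FPKM in control cells without LPS.

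Genes for lysophospholipid receptors and enzymes went in both directions with LPS. Among 12 of them other than Lpar6 in the Spic-/- pair, 3 were at least 2-fold higher and 4 lower, and among 10 in the control pair 4 were higher and 2 lower. Enzyme genes were among these, with Ppap2a higher and Pla2g15 lower in both genotypes and Ppap2b higher in control cells. Lpar1 had 20.8 FPKM in Spic-/- and 18.1 FPKM in control cells with LPS, and 2.91 FPKM in Spic-/- and 3.63 FPKM in control cells without LPS. Lpar5 was listed at 0 in Spic-/- and stood at 0.377 FPKM in control cells with LPS, and at 5.02 FPKM in Spic-/- and 4.72 FPKM in control cells without LPS. Lpar6 took 7.23% of the summed FPKM of the 6 LPA receptor genes in Spic-/- and 7.22% in control cells with LPS, and 76.8% in Spic-/- and 71.1% in control cells without LPS. Among sphingosine phosphate receptors, S1pr3 had log2 ratios of 2.01 in Spic-/- and 2.41 in control cells, and S1pr2 −1.93 in Spic-/- and −1.89 in control cells.

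Genes that make, move and clear adenosine were mixed. Of 9 apart from the receptors described above, 2 were at least 2-fold higher with LPS and 2 lower in each genotype, with a median of −0.49 in Spic-/- and −0.63 in control cells. Pnp, a purine nucleoside phosphorylase gene, had 319 FPKM in Spic-/- and 190.3 FPKM in control cells with LPS, and 42.9 FPKM in Spic-/- and 36.3 FPKM in control cells without LPS. The nucleoside carrier gene Slc28a2 had log2 ratios of 2.22 in Spic-/- and 2.05 in control cells, and Slc29a3, another carrier, −1.29 in Spic-/- and −1.51 in control cells. Entpd1, which encodes the ATP-degrading enzyme CD39, had −0.93 in Spic-/- and −0.88 in control cells. Nt5e, which encodes CD73 and makes adenosine from AMP, was at most 0.0458 FPKM in any library.

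In the list of other ATP and UDP receptors and release genes, which also holds the inflammasome genes Nlrp3 and Casp1, 3 of 6 in Spic-/- and 2 of 7 in control cells were at least 2-fold higher with LPS and none was lower. Nlrp3, the sensor gene of the inflammasome, had 409 FPKM in Spic-/- and 274 FPKM in control cells with LPS, and 24.8 FPKM in Spic-/- and 21.9 FPKM in control cells without LPS. The ATP release channel gene Panx1 was at −0.88 in Spic-/- and −0.74 in control cells. Downstream, 4 of 25 G protein and cyclic AMP genes in Spic-/- and 4 of 24 in control cells were at least 2-fold higher with LPS, and 3 were lower in each genotype. Pde4b, which breaks down cyclic AMP, had 137 FPKM in Spic-/- and 119 FPKM in control cells with LPS, and 6.68 FPKM in Spic-/- and 4.61 FPKM in control cells without LPS. Rgs2, a brake on G protein signalling, had log2 ratios of −2.54 in Spic-/- and −2.82 in control cells. The related genes Rgs16 (2.45 in Spic-/- and 2.54 in control cells) and Rgs1 (1.54 and 1.02) went the other way. The beta-arrestin gene Arrb1 had −1.73 in Spic-/- and −1.62 in control cells.

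**Figure D4:**
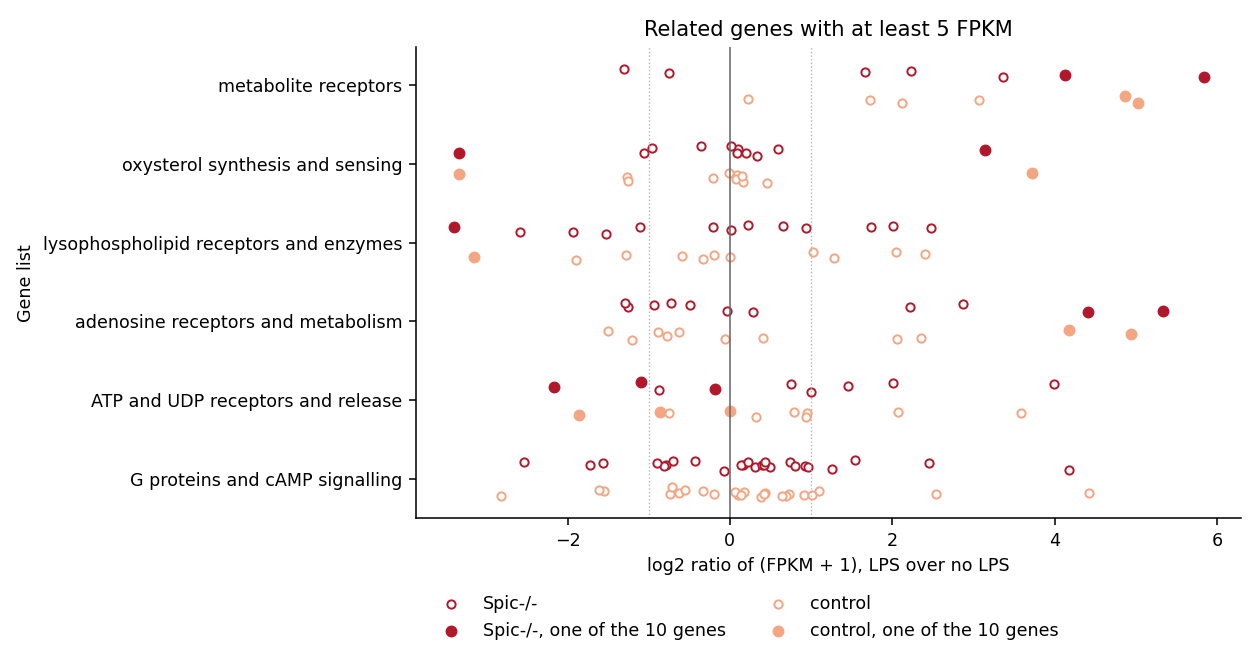
Log2 ratios of (FPKM + 1) for LPS over no LPS in the 6 related lists, with 1 point per gene that reached 5 FPKM, red for Spic-/- and orange for control cells, filled for the 10 genes. Dotted lines mark 2-fold, and the filled points of Niacr1, Gpr84, Ch25h, Adora2a and Adora2b are the highest of their lists in each genotype.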

How the data were processed

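The authors deposited 1 table of FPKM values per library, 4 in all, with 23284 gene rows and no read counts. The submitters' processing notes name Cuffnorm 2.2.1, SAMtools 0.1.19, Bowtie2 2.2.3, TopHat2 2.0.13 and the build mm10. Their roles, settings, annotation and strand use are not given in the sources used here. Per the labels' protocols, libraries were made with a stranded mRNA kit.

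Values were used as deposited. Libraries were compared by the log2 ratio of their values after adding 1 FPKM, and genes with at least 5 FPKM in at least 1 library of a comparison were counted at 2-fold. On this scale the change of low genes is understated. With 1 library a group no test was run.

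Fragments were estimated from the spacing of low FPKM values. Of 2419 genes under 0.6 FPKM, 1916 (79.2%) had values that were multiples of 1 common step to within 0.02, with divisors up to 6. Relative to control without LPS (100%), the fragments behind 1 FPKM were 51.6% in Spic-/- with LPS, 67.8% in control with LPS and 82.8% in Spic-/- without LPS. The summed FPKM was 819232 in Spic-/- and 736818 in control with LPS, and 525348 in Spic-/- and 500123 in control without LPS. This scale is therefore not a measure of total fragments, which were not recovered. Single-transcript genes (294, GENCODE vM21, effective length 210 bases under the exonic length) gave the scale. For 7 genes all 4 values were whole multiples within 0.02 at a length within 10% of a GENCODE exonic length or, as for Lpar6, of a RefSeq gene length, each less 210 bases. For Gpr84, whose values gave no such solution, the length of its only annotated transcript was used, so its fragments are an estimate. For P2rx4 and P2rx7 the shortest annotated transcript over 1 kb was used, which widens the intervals of P2rx4 and P2rx7. Intervals are exact (Clopper-Pearson for ratios, Poisson for levels) at 95%. The recovery and the counting were tested on simulated data. True gene lengths and the fragment scale were supplied there, so the lengths and scale used here were not checked.

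The 10 genes, the 6 lists and the markers were chosen with earlier results of these data known. Named genes were Spic, the 10 genes, genes overlapping them that have a row in the files, up to 4 further genes per list and comparison with the largest absolute ratio, and the 3 nearest profiles of 3 genes. Cyp7b1, Nt5e, Adora1 and Adora3 lie outside this rule and were named after their values were seen. The same holds for the markers Cd3e, Siglech, Cpa3, Mpo, S100a8, S100a9, Pecam1, Cdh5, Thy1 and Lyz2. Analyses used Python 3.11.15, pandas 2.3.3, scipy 1.17.1 and matplotlib 3.10.9.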

Additional observations from a re-analysis of the deposited data

Results flagged for a closer look

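For 2 of the 10 genes a ratio had opposite signs in the 2 states compared, each state being 1 library pair, and the difference was not tested. Adora2a had a Spic-/- to control log2 ratio of 0.33 with LPS and −0.08 without LPS, where the levels were 0.365 FPKM in Spic-/- and 0.440 FPKM in control cells. P2rx4 had a log2 ratio for LPS of −0.18 in Spic-/- and 0.00 in control cells. The counting interval of the ratio included 1 for Adora2a without LPS (0.348 to 1.91) and for P2rx4 in control cells (0.923 to 1.09). After upper-quartile scaling P2rx4 was below 0 in both genotypes, at −0.36 in Spic-/- and −0.17 in control cells. A change of sign is therefore not shown for either gene.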

How the results depend on the processing

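Counts of the 10 genes at 2-fold for LPS in Spic-/- (5 higher, 4 lower) and in control cells (5 higher, 3 lower) moved by over 1.5 times only with a minimum of 20 FPKM, which left 2 lower in Spic-/- and 1 lower in control cells because fewer genes were tested. By genotype with LPS, the count of 1 higher gene became 2 at a 1.5-fold threshold and 0 at 3-fold. Without LPS, the count of 2 became 0 with a pseudocount of 5 FPKM or at 3-fold, and 1 with a minimum of 20 FPKM. For the difference of the LPS responses, 1 gene (Niacr1) was higher with a pseudocount of 5 FPKM, and at 1.5-fold 1 was higher and 1 (Gpr84) lower. Upper-quartile scaling moved the median of all genes for LPS from 0.12 to −0.06 in Spic-/- and from 0.11 to −0.07 in control cells, and higher genes among all calls from 63.9% to 51.3% and from 65.5% to 52.9%. No ratio past 2-fold changed sign in any alternative run. Under 2-fold, the difference of the responses changed sign for Ch25h and Gpr183, as did the LPS ratio of P2rx4 in control cells and the genotype ratio of P2ry6 with LPS (0.06 as deposited, −0.03 after upper-quartile scaling). Leaving out a replicate was not possible with 1 library a group. No paired analysis was possible because each group is 1 library. Low fragment numbers limit the ratios of Gpr183, Lpar6 and P2rx7 with LPS and of Adora2a without LPS.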
